A study of Mus musculus with 4 samples.

Results

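The 9 genes described here encode factors that set the myogenic fate, mark the satellite cells of muscle or drive myoblast fusion, and they were compared between quadriceps of WT mice and of mice that lack the Mef2d α2 exon. They comprise the myogenic regulatory factors Myod1, Myf5, Myog and Myf6, the paired-box factors Pax7 and Pax3, the homeobox factor Six4 with its cofactor gene Eya1, and the fusion gene Mymk. The members were taken by symbol from the 51826 rows of the deposited table. Of the 9, 8 stood there under these symbols and 1, Mymk, stood under its older symbol Tmem8c.

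RNA was taken from the quadriceps of 4 sedentary males aged 20 weeks, of which 2 were WT and 2 were Mef2dα2 Eko (hereafter Eko), and each mouse gave 1 library of polyA RNA. The Eko mice carry a germline CRISPR-Cas9 deletion of the muscle-specific α2 exon of Mef2d on both alleles, so the exon is missing from every cell and not from muscle alone. All 4 mice share the C57BL6/J background, the WT mice carry no edit, and both genotypes come from crosses of heterozygotes. The study kept several founder lines, and the sample labels do not name the line of the sequenced mice.

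Myogenic regulatory factors are basic helix-loop-helix proteins that bind E-boxes as dimers with ubiquitous E proteins and activate muscle genes together with MEF2 proteins. Pax7 and Pax3 mark and maintain the muscle progenitors, homeobox proteins of the sine oculis family with their Eya coactivators act upstream of the myogenic regulatory factors, and myomaker, the product of Mymk, lets differentiating myoblasts fuse. In resting adult muscle, satellite cells are rare and quiescent, and most RNA comes from the myofibres. Whole-muscle RNA therefore mixes both, and fewer cells of a type cannot be told apart from less RNA per cell.

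The promoter of Myog is a textbook site where MEF2 proteins and myogenic regulatory factors act together, and it is shown for this reason beside that of Myf5, the member with the largest fold change. The RefSeq table of promoter windows on GRCm38.p6 held 4 of the 9 members, Myog, Pax7, Myf5 and Six4. A window spans 250 bases before and 50 bases from the annotated start on, and the bases printed are those before the gene model. Capitals mark E-boxes, spelled CANNTG, and a MEF2-like core of TA, then 4 bases that are each A or T, then TA. Both patterns read the same on either strand and do not overlap here. Myog is shown on the plus strand at chr1:134289754-134289988 and Myf5 on the minus strand at chr10:107486135-107486384.
Myog: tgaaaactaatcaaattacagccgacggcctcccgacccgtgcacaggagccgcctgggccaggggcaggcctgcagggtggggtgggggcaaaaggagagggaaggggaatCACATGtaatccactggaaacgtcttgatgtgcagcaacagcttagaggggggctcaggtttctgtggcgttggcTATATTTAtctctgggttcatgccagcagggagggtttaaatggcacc
Myf5: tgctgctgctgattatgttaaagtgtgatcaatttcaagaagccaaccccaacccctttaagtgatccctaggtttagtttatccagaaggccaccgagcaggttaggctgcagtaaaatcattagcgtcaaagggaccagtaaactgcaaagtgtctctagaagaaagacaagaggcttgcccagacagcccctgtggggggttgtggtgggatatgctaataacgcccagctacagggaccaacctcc

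The Myog window held an E-box that begins 138 bases before the RefSeq start and the MEF2-like core, which begins 63 bases before it. A further E-box, CAGTTG, begins 12 bases before that start, inside the gene model of GENCODE release M21, and is therefore not printed. Neither pattern occurs in the windows of Myf5, Pax7 and Six4, which says only that these letters are not in those windows. Among all 32851 promoter windows of the same length, 72.3% held an E-box, 9.32% held the MEF2-like core and 7.01% held both.

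Total expected counts, the number of reads that RSEM assigned to genes, lay between 72626757 and 85176059 per library, and the totals of the genotypes overlapped. Levels are given in CPM, which are counts divided by the TMM-adjusted size of the library. A floor of 3 counts stood at 0.0348 to 0.0419 CPM, depending on the library, and accounts for counting error alone. Mature muscle was evident in every library, where 6 fast myofibre markers summed to between 114065 and 119262 CPM. Mef2d itself stood at 259 and 227 CPM for WT against 252 and 241 CPM for Eko, a log2 fold change of 0.02 (adjusted p = 0.960 from edgeR), and counts per gene do not show the exon.

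No member passed the test between the genotypes. Over the 16120 genes tested with edgeR's quasi-likelihood test and Benjamini-Hochberg adjustment, 0 of the 8 members that passed the filter on low counts had an adjusted p below 0.05, beside 0.416% of all genes tested. With DESeq2 and with limma-voom the number was also 0. At an unadjusted p below 0.05, edgeR's test found 2 of the 8, Myf6 and Eya1, beside 11.6% of all genes, and DESeq2 and limma-voom each found 2. Both had higher values in Eko quadriceps, as 5.15% of all genes did, and 0 members had lower ones, as 6.41% of all genes did. Both Eko mice lay above both WT mice for 4 of the 8, Myf6, Myf5, Six4 and Eya1, and below both for 0. The genotypes did not overlap in 43.8% of all genes tested, with Eko above in 20.8% and below in 23%. The median log2 fold change of the 8 was 0.11, beside -0.01 over all genes tested.

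Myf6, also called MRF4, is the myogenic regulatory factor that myofibres keep expressing in adulthood, and per kb of exon it had the highest level of the 9. The gene (ENSMUSG00000035923.4) lies on the minus strand of chromosome 10 of GRCm38 from 107492853 to 107494737. Its counts were 4660 and 5164 for WT against 6091 and 5736 for Eko, which is 61.4 and 63.9 CPM against 70.7 and 80.2 CPM. Both Eko mice were thus above both WT mice, and the gap between the genotypes was smaller than the distance between the Eko mice. The means were 62.6 ± 1.73 CPM (SD, n = 2 mice) for WT and 75.4 ± 6.75 CPM (SD, n = 2 mice) for Eko. The log2 fold change of 0.27 (standard error 0.08, 95% interval 0.07 to 0.46) had an adjusted p of 0.297 in edgeR's quasi-likelihood test, so it did not pass over all genes.

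Myod1, which with Myf5 commits progenitor cells to the myogenic fate and is also found in fast myofibres, had the next highest level per kb. The gene (ENSMUSG00000009471.4) lies on the plus strand of chromosome 7 from 46376474 to 46379099. It had 2046 and 2455 counts for WT against 1677 and 2104 counts for Eko, at 27.0 and 30.4 CPM against 19.5 and 29.4 CPM. Eko replicate 1 stood below the other 3 libraries, while Eko replicate 2 lay between the WT mice. The log2 fold change was -0.23 (standard error 0.18, 95% interval -0.66 to 0.19, adjusted p = 0.672 from the edgeR test), and it was 0.05 when Eko replicate 1 was left out.

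Myog encodes myogenin, which drives the terminal differentiation of myoblasts and returns in myofibres after denervation. The gene (ENSMUSG00000026459.5) lies on the plus strand of chromosome 1 from 134289989 to 134292548, directly after the promoter shown above. Its level was 2.16 and 5.18 CPM for WT, from 164 and 419 counts, and 2.34 and 4.14 CPM for Eko, from 202 and 296 counts. Each genotype had 1 mouse low and 1 mouse high, and the WT mice enclosed both Eko mice. The WT mice differed 2.40-fold, a distance that 2.80% of all genes tested matched or passed. The log2 fold change came to -0.19 (standard error 0.42, adjusted p = 0.900 in edgeR), and its 95% interval, from -1.19 to 0.81, allows a difference from 0.439-fold to 1.75-fold. It was 0.59 without WT replicate 2 and 0.18 without Eko replicate 1, so its direction turned with single mice.

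Myf5, the earliest myogenic regulatory factor in the embryo and in the adult a gene of satellite cells, had the lowest level per kb of the 4. It (ENSMUSG00000000435.1) lies on the minus strand of chromosome 10 from 107482908 to 107486134, beside Myf6. The counts were 60 and 59 for WT against 72 and 101 for Eko, or 0.791 and 0.730 CPM against 0.835 and 1.41 CPM. Eko replicate 1 was close to the WT mice, and replicate 2 was well above the other 3 libraries. Its log2 fold change of 0.56 (standard error 0.32, 95% interval -0.21 to 1.32, adjusted p = 0.560 from the edgeR test) was the largest among the members and was 0.14 without Eko replicate 2.

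Levels of different genes were compared per kb of exon in the gene model of GENCODE release M21, which merges the exons of all transcripts of a gene. On this scale Myf6 made up 74.9% and 71.5% of the summed level of the 4 myogenic regulatory factors for WT against 81.8% and 76.7% for Eko. Myod1 took 22.3% and 23.1% for WT against 15.3% and 19.1% for Eko. Myog took between 2.23% and 4.90%, and Myf5 between 0.495% and 0.819%. The ratio of Myf6 to Myod1 per kb, which needs no scaling between libraries, was 3.36 and 3.10 for WT against 5.35 and 4.02 for Eko. The genotypes did not overlap in it, as they did not in 43.8% of all genes tested taken singly. Its highest value came from Eko replicate 1, the library with the lowest Myod1 level. Neither gene passed by itself, with adjusted p-values of 0.297 for Myf6 and 0.672 for Myod1 in the edgeR test. With 2 mice per genotype, the smallest two-sided p of an exact permutation test is 0.333, so that test could not pass. No other test of this ratio was run.

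**Figure D1:**
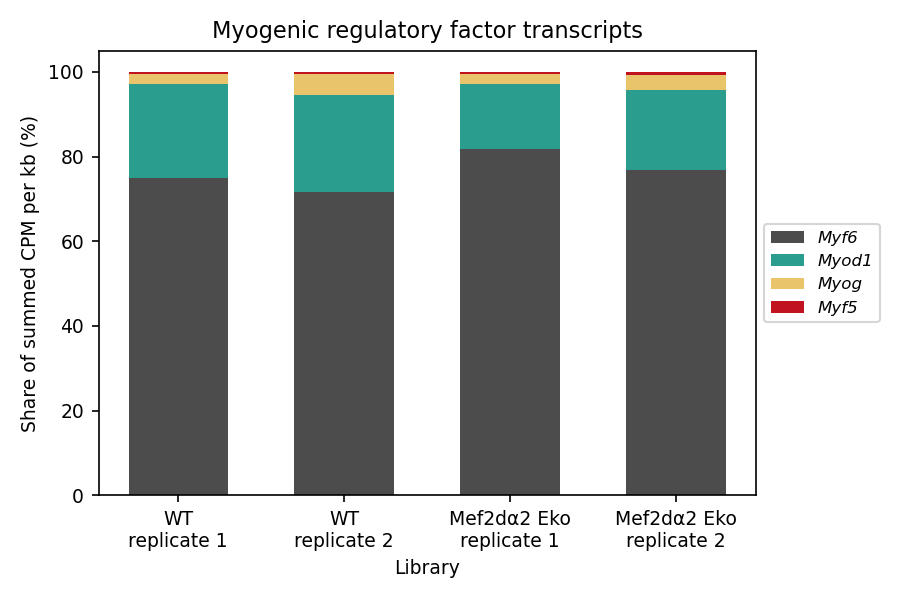
Stacked bars of the share (%) of each myogenic regulatory factor in their summed CPM per kb of exon, 1 bar per library, starting at 0. Myf6 takes 71.5% to 81.8% of every bar, and Myod1 takes 22.3% and 23.1% in the WT libraries against 15.3% and 19.1% in the Eko libraries.

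Pax7 is the defining transcription factor of adult satellite cells. The gene (ENSMUSG00000028736.13) lies on the minus strand of chromosome 4 from 139737062 to 139833528. It had 212 and 187 counts for WT against 230 and 218 counts for Eko, at 2.79 and 2.31 CPM against 2.67 and 3.05 CPM. The genotypes overlapped, and the mice of a genotype stood 1.21-fold apart for WT and 1.14-fold apart for Eko. The log2 fold change came to 0.16 (standard error 0.17, adjusted p = 0.770 from the edgeR test), with a 95% interval from -0.25 to 0.58 that allows between 0.840-fold and 1.49-fold.

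Pax3, the progenitor factor of embryonic limb muscle that persists in some adult satellite cells, had a lower level per kb than Pax7 in every library. The gene (ENSMUSG00000004872.15) lies on the minus strand of chromosome 1 from 78101267 to 78197134. It was at 1.16 and 2.39 CPM for WT, from 88 and 193 counts, and at 2.31 and 1.38 CPM for Eko, from 199 and 99 counts. Again each genotype held 1 low and 1 high mouse, but the high ones were WT replicate 2 and Eko replicate 1, while Myog was high in replicate 2 of both genotypes. The WT mice differed 2.06-fold, as 4.37% of all genes tested did or more. The log2 fold change of 0.06 (standard error 0.38, 95% interval -0.85 to 0.97, adjusted p = 0.969 from the edgeR test) turned to -0.36 without WT replicate 1 and to -0.35 without Eko replicate 1. Per kb, the level of Pax7 was 2.54 and 1.02 times that of Pax3 for WT and 1.22 and 2.32 times for Eko.

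Six4, a homeobox factor that binds the regulatory regions of myogenic genes, had the smallest log2 fold change of the 8 and close values in all 4 libraries. The gene (ENSMUSG00000034460.9) lies on the minus strand of chromosome 12 from 73099609 to 73113456. Its counts of 2162 and 2286 for WT against 2475 and 2144 for Eko gave 28.5 and 28.3 CPM against 28.7 and 30.0 CPM. Both Eko mice were above both WT mice, yet the gap between the genotypes was about as small as the distance between the WT mice. Its log2 fold change came to 0.05 (standard error 0.07, adjusted p = 0.839 from the edgeR test), and its 95% interval of -0.12 to 0.21 leaves room for between 0.922-fold and 1.16-fold.

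Eya1 encodes a phosphatase and coactivator that Six4 and its relatives recruit. The gene (ENSMUSG00000025932.14) lies on the minus strand of chromosome 1 from 14168954 to 14310235, and the genes Gm22616 on the other strand and Gm37444 on its own strand lie within it without sharing exon bases. It had 1825 and 1887 counts for WT against 2372 and 2038 counts for Eko, or 24.0 and 23.3 CPM against 27.5 and 28.5 CPM. The groups stood apart, and the distance between them was larger than that between mice of a genotype, which were 1.03-fold apart for WT and 1.04-fold apart for Eko. Its means were 23.7 ± 0.507 CPM (SD, n = 2 mice) for WT against 28.0 ± 0.695 CPM (SD, n = 2 mice) for Eko, and the log2 fold change came to 0.24 (standard error 0.07, 95% interval 0.07 to 0.41). Over all genes its adjusted p was 0.283 in edgeR's quasi-likelihood test, the smallest of the members, with an unadjusted p of 0.0114. Leaving out any 1 mouse kept the value between 0.22 and 0.28.

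Mymk (ENSMUSG00000009214.9), on the minus strand of chromosome 2 from 27061636 to 27072179, was at the limit of detection. It had 4 and 4 counts for WT against 6 and 0 counts for Eko, did not pass the filter on low counts, and no fold is given. Its partner in fusion, Mymx, listed under its older symbol Gm7325, had 1 and 4 counts for WT against 0 and 2 counts for Eko. The transcripts of the muscle-specific fusion proteins were therefore at or near the floor in both genotypes, and a difference in them was not detectable at this depth.

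**Figure D2:**
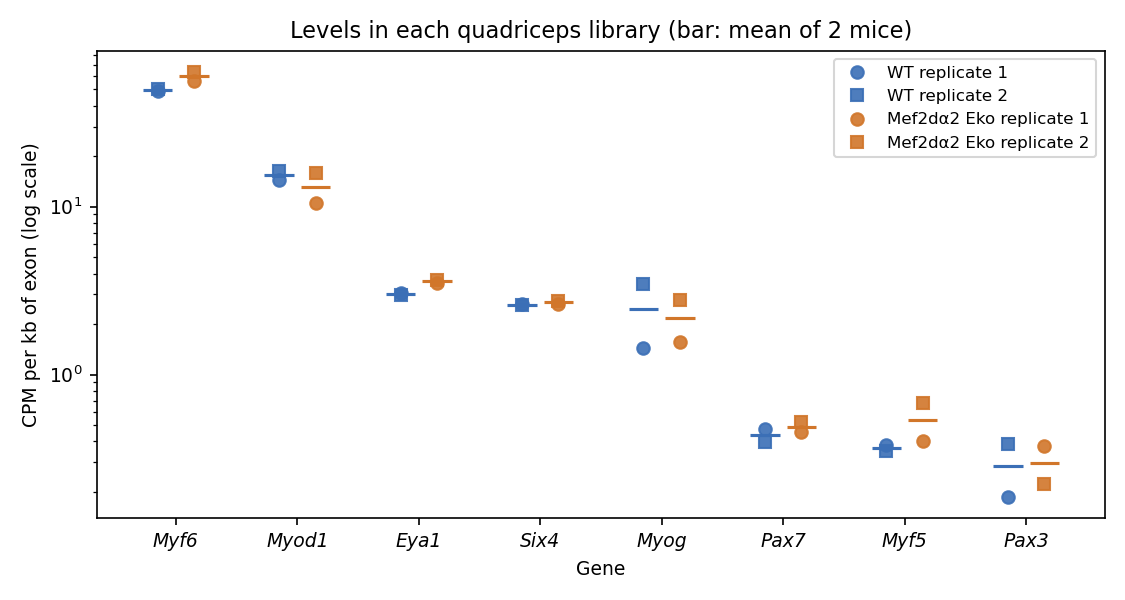
Level of 8 of the 9 genes in each library, in CPM per kb of exon on a log axis, with circles for replicate 1, squares for replicate 2, blue for WT, orange for Eko, and a bar at the mean of 2 mice. Myf6 lies near 50 to 60, at 49.6 for WT and 59.7 for Eko, and Pax3 is lowest at 0.287 and 0.298, while Myog and Pax3 show the widest gaps between mice of a genotype, and Mymk, at 0 in 1 library, is not drawn.

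Ordered by level per kb for WT, Myf6 was at 49.6 ± 1.37 CPM per kb (SD, n = 2 mice) and Myod1 at 15.4 ± 1.29, followed by Eya1 at 3.03 ± 0.0649, Six4 at 2.61 ± 0.0146 and Myog at 2.46 ± 1.43. Pax7 at 0.436 ± 0.0581, Myf5 at 0.365 ± 0.0207, Pax3 at 0.287 ± 0.140 and Mymk at 0.0338 ± 0.00152 CPM per kb came after them. In the Eko mice the order differed only in Myf5, at 0.539 ± 0.196, standing before Pax7, at 0.488 ± 0.0459 CPM per kb. The ranges over the 4 libraries of Myf6, of Myod1 and of the genes after them did not overlap. Myog, from 1.45 to 3.47 CPM per kb, overlapped with both Six4 and Eya1, and Myf5, from 0.350 to 0.678 CPM per kb, overlapped with both Pax7 and Pax3, so these pairs do not differ beyond their spread. The ranges of Eya1, from 2.99 to 3.65, and Six4, at most 2.76 CPM per kb, did not overlap, nor did those of Pax7, from 0.395 to 0.520, and Pax3, from 0.187 to 0.386 CPM per kb.

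**Figure D3:**
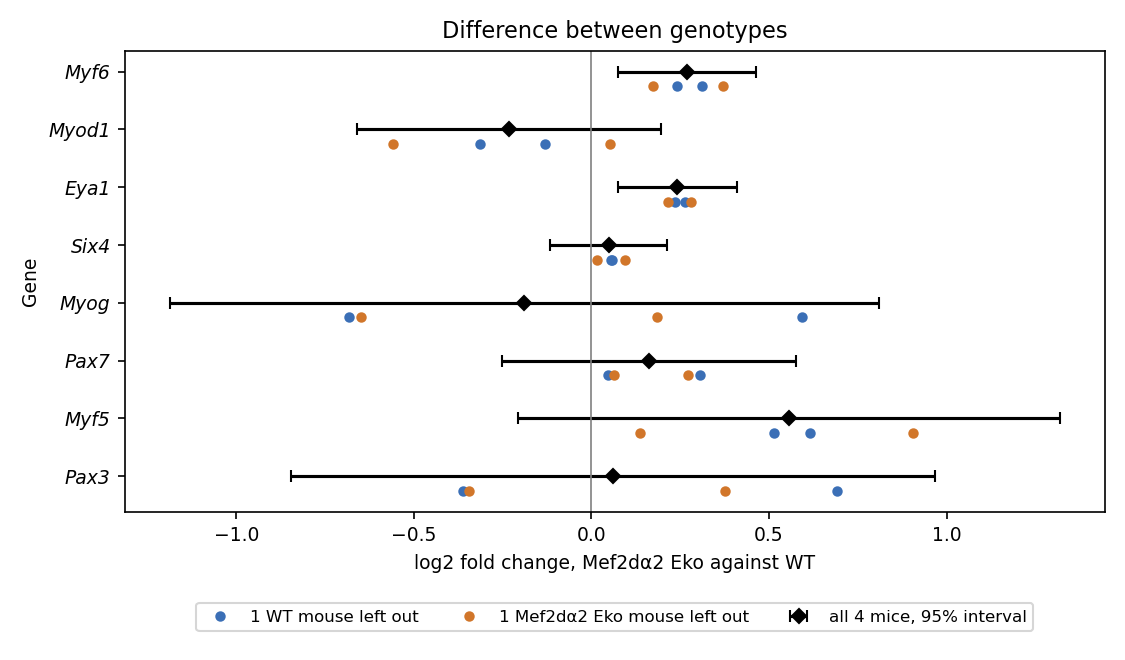
Log2 fold change of 8 genes in Eko against WT quadriceps, with black diamonds for the fit on 4 mice, bars for its 95% interval, and dots below for the fits that leave out 1 WT mouse (blue) or 1 Eko mouse (orange). The intervals of Myf6 (0.07 to 0.46) and Eya1 (0.07 to 0.41) lie above 0 before adjustment over all genes, and dots of Myod1, Myog and Pax3 fall on both sides of 0.

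The other genes of the pathway were described by 6 lists, of bHLH partners and inhibitors, other sine oculis, Eya and Dach genes, other satellite cell markers, other fusion genes, genes that myogenic regulatory factors activate, and cell cycle genes. Of their 78 genes, 71 were tested and 0 passed an adjusted p of 0.05 with edgeR, and limma-voom also called 0, while DESeq2 called 1, Cdkn1a. At an unadjusted p below 0.05, 8 of the 71 were found, 4 with higher and 4 with lower values for Eko, which is 11.3% beside 11.6% of all genes. The genotypes did not overlap in 42.3% of the 71, beside 43.8% of all genes.

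Among the 14 bHLH partners and inhibitors, the E protein gene Tcf3 had the lowest log2 fold change, -0.32 (unadjusted p = 0.0429, adjusted p = 0.416 in the edgeR test), with 9.88 and 8.42 CPM for WT against 7.90 and 6.73 CPM for Eko. Mdfi, an inhibitor of myogenic factors, had the highest at 0.56 with at most 28 counts in a library. The median of this list was -0.06.

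The 8 other sine oculis, Eya and Dach genes had a median of 0.16, from -0.21 for Dach2 to 0.43 for Dach1, both of which encode corepressors that act with Six4 and its relatives. Six2, named here after its values were seen, had 9.92 and 21.7 CPM for WT against 24.0 and 17.2 CPM for Eko. The genotypes overlapped, and its log2 fold change was 0.38 (adjusted p = 0.703 in the edgeR test).

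The 16 other satellite cell markers had a median of 0.03. Calcr, the calcitonin receptor of quiescent satellite cells, had the highest value, 0.66, from 13 and 23 counts for WT against 29 and 28 counts for Eko (adjusted p = 0.614 in the edgeR test). Hes1, a Notch target, had the lowest, -0.62 (adjusted p = 0.414), with 11.7 and 7.06 CPM for WT against 6.99 and 5.19 CPM for Eko, so the lower WT mouse was next to the higher Eko mouse. Met, the receptor of hepatocyte growth factor, at 0.26, and Notch3, at 0.20, also had unadjusted p-values below 0.05, 0.0458 and 0.0466, and an adjusted p of 0.422 each. Notch3 shares exon bases with Gm17276 on the other strand, which may bear on its counts because no source used here names the strand setting of the counting. Mef2d, Stab2, Runx1, Ccna2, Pdgfra, Csf1r and Myh1 also share exon bases with a gene on the other strand.

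Of the 19 other fusion genes, 15 were tested, since Mymx, Adgrb1, Adgrb3 and Nphs1 had at most 4 counts in any library. Their median was -0.01. Stab2, a scavenger receptor also known from endothelium, had the highest log2 fold change, 0.33, and the caveolin gene Cav3 the lowest, -0.24, with adjusted p-values of 0.291 and 0.290 in the edgeR test. In both genes the genotypes did not overlap.

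Of the 12 genes that myogenic regulatory factors activate in denervated, regenerating or differentiating muscle, 11 were tested, with a median of -0.04. The cell cycle inhibitor gene Cdkn1a had the highest log2 fold change in this list, with 474 and 456 counts for WT against 828 and 595 counts for Eko, at 6.25 and 5.64 CPM against 9.60 and 8.32 CPM. The value was 0.59 (standard error 0.12, 95% interval 0.31 to 0.88), with an adjusted p of 0.150 in edgeR's quasi-likelihood test and of 0.0167 with DESeq2. Cdkn1a shares exon bases with AC167363.2 on the other strand. Runx1 was lowest in this list at -0.47 (adjusted p = 0.454 in the edgeR test). Chrng, the fetal acetylcholine receptor subunit gene, had 3 and 10 counts for WT against 1 and 3 counts for Eko and was not tested.

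The 9 cell cycle genes had summed levels from 22.2 to 23.8 CPM, and 7 were tested with a median of -0.02. Most of the sum came from Pcna and Mcm2, named here for this reason. Their mean levels lay above those of 60.2% and 55.7% of all genes tested, so the sum says little about the other genes. Top2a, which dividing cells express, had 12 and 32 counts for WT against 4 and 8 counts for Eko, a log2 fold change of -1.83 (unadjusted p = 0.0366, adjusted p = 0.400 in the edgeR test). Ccna2, another gene of dividing cells, pointed the other way at 0.60 with 13 and 22 counts against 36 and 18 counts.

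**Figure D4:**
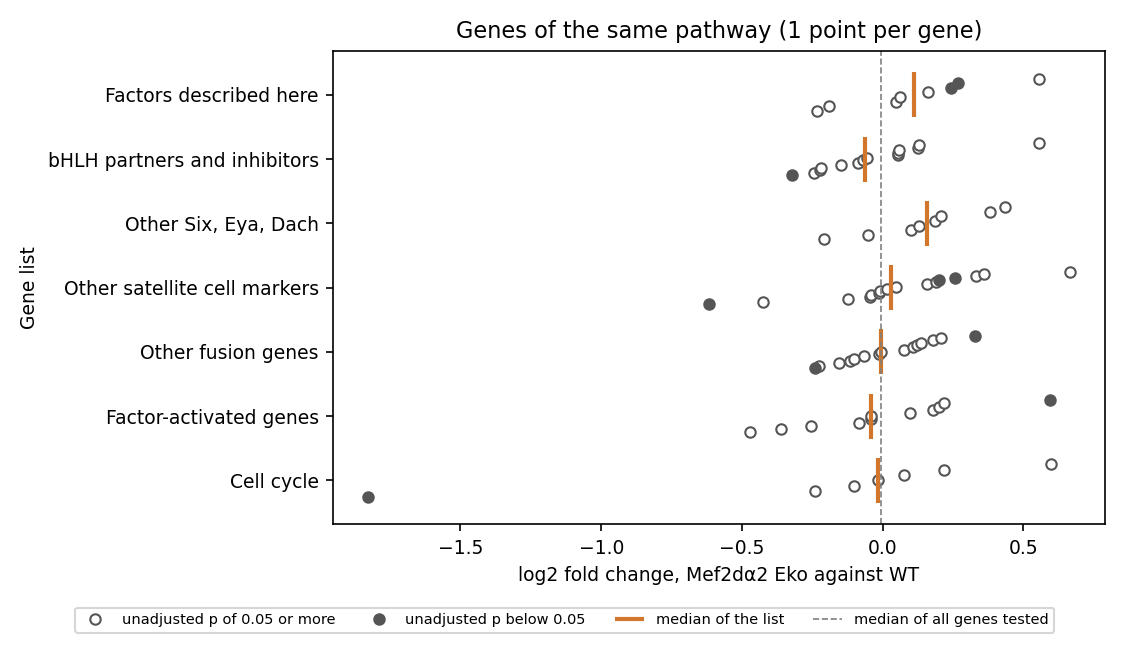
Log2 fold change in Eko against WT quadriceps of each tested gene in 7 lists, 1 point per gene, filled where the unadjusted p was below 0.05, with an orange bar at the median of the list and a dashed line at the median of all genes tested. The medians lie between -0.06 for the bHLH partners and inhibitors and 0.16 for the other sine oculis, Eya and Dach genes, and Top2a at -1.83 lies farthest out.

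Markers of the other cells of muscle also varied between the mice. The summed level of 4 adipocyte markers was 31.6 and 13.8 CPM for WT against 17.2 and 5.44 CPM for Eko, and that of 4 macrophage markers was 17.2 and 13.1 CPM for WT against 13.3 and 9.05 CPM for Eko. Eko replicate 2, which had the highest Myf5, Myf6, Pax7, Six4 and Eya1 levels, thus had the lowest adipocyte and macrophage sums. It also had the highest sum of mural cell markers, at 281 and 269 CPM for WT against 296 and 331 CPM for Eko, and of fast myofibre markers. Its sum of fibro-adipogenic progenitor markers was the lowest, at 203 and 225 CPM for WT against 244 and 196 CPM for Eko. Most of that sum came from 1 marker, in which the genotypes overlapped. The other 3, Pdgfra, Ly6a and Dpt, were lower in both Eko mice than in both WT mice. Of the 6 fast myofibre markers, 2 were higher in both Eko mice, 2 were lower in both and 2 overlapped. The part of these cell types in the members' values was not tested. Endothelial markers summed to 121 to 142 CPM over the 4 libraries. Of the 30 genes in the 7 marker lists, fast myofibre markers included, 0 passed an adjusted p of 0.05 with edgeR, and 11 had an unadjusted p below 0.05, 3 with higher and 8 with lower values for Eko. This is 36.7% of the 30, beside 11.6% of all genes tested. Among the 11, Rgs5 and Myh11 had log2 fold changes of 0.19 and 0.22, and Pdgfra, Ly6a, Dpt, Cd68, Csf1r, Adipoq, Cidec and Myh1 had -0.26, -0.36, -0.31, -0.77, -0.64, -1.08, -1.36 and -0.44. DESeq2 called 1 of the 30, Myh1, and limma-voom called 0.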

How the data were processed

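Quadriceps RNA of 2 WT and 2 Mef2dα2 Eko mice was sequenced after polyA selection with a stranded kit, per the labels. The authors mapped the reads to mm10, ran RSEM on Ensembl gene models of GRCm38, and deposited its expected counts per gene as they were, not normalized. The submitters' processing notes list STAR 2.6.1a. The strand setting of the counting is not given in the sources used here. All values were whole, so rounding changed 0 of them.

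Genotypes and replicate numbers come from the library names. Counts were analysed in R 4.3.3 by edgeR 4.0.16 and its quasi-likelihood test, genotype as the sole term, TMM normalization, the default filter (16120 of 24621 genes with any count tested), a prior count of 0.125 and Benjamini-Hochberg adjustment with a threshold of 0.05. Standard errors and 95% intervals came from the F statistic. Members were matched by symbol, and older symbols through RefSeq. Exon lengths and positions came from GENCODE release M21 on GRCm38.

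The members and gene lists were chosen with earlier results of these data known. Named genes are all members, Mef2d, and from each other list the tested genes with the highest and lowest log2 fold change and those with an unadjusted p below 0.05 (for the marker lists of other cells, the latter only), except genes that are not reported here. Alternatives were DESeq2 1.42.0, limma-voom (limma 3.58.1), RLE and upper-quartile normalization, no filter, at least 1 CPM in 2 libraries, a replicate block, and leaving out each mouse. The fits were tested on simulated data.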

Additional observations from a re-analysis of the deposited data

How the results depend on the processing

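The number of members with an adjusted p below 0.05 was 0 under all 11 alternatives, each mouse left out included. The smallest adjusted p of any member was 0.0563, for Myf6 without the filter on low counts. Log2 fold changes of the 8 tested members kept their direction under every other tool, normalization and filter, while single mice turned 3 of them. With each mouse left out in turn, Myod1 ran from -0.56 to 0.052, Myog from -0.68 to 0.59 and Pax3 from -0.36 to 0.69, whereas Myf6 ran from 0.17 to 0.37, Myf5 from 0.14 to 0.91, Pax7 from 0.046 to 0.30 and Six4 from 0.017 to 0.093. Myf5 was not tested with at least 1 CPM in 2 libraries. The adjusted p-values rest on the spread over the whole table, and the number of genes called over it was 67, against 318 with DESeq2, 799 without the filter, 23 with at least 1 CPM in 2 libraries, and 99 to 299 with each mouse left out. DESeq2 took the share of called genes that were lower in Mef2dα2 Eko mice from 74.6% to 58.5%, and dropping the filter took it to 62.1%.

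The replicate numbers of the labels number different mice. The paper calls the sequenced mice littermates, and the labels do not say which mice share a litter. The deviations from the genotype means correlated at 0.18 over 16120 genes between WT replicate 1 and Mef2dα2 Eko replicate 1, which with 2 mice a genotype does not show pairing. With the number as a replicate block, 186 genes were called over the whole table, 0 of the members, 1 of the genes that myogenic regulatory factors activate (Cdkn1a, adjusted p = 0.0400) and 3 of the adipocyte markers (Adipoq, Cidec and Plin1).

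In the lists, where the main count was 0, DESeq2 called 1 factor-activated gene (Cdkn1a) and 1 myofibre marker (Myh1). Without the filter, 1 gene was called in each of the lists of other sine oculis, Eya and Dach genes (Six2), satellite cell markers (Hes1), fusion genes (Stab2), factor-activated genes (Cdkn1a), and markers of fibro-adipogenic progenitors (Ly6a), macrophages (Csf1r) and myofibres (Myh1), and 3 in that of adipocytes (Adipoq, Cidec and Plin1). With 1 mouse left out, the count ran from 0 to 1 for the bHLH partners (Twist1, without WT replicate 2), the other sine oculis, Eya and Dach genes (Six2) and the satellite cell markers (Hes1, both without that mouse), and for the macrophage and myofibre markers, and from 0 to 4 for the adipocyte markers. The cause was not tested. With 2 mice a genotype, the intervals leave differences of the size given beside each member undetected.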
